A study of Homo sapiens with 9 samples.

Results

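The MAGE (melanoma antigen) genes were taken from the deposited expression table by name: every row whose symbol is MAGE followed by a subfamily letter from A to L and an optional number or copy letter. The rule found 35 genes among the 26190 rows with values, comprising 13 MAGEA, 10 MAGEB, 3 MAGEC, 4 MAGED, 2 MAGEE, 1 MAGEF, 1 MAGEH and 1 MAGEL gene. RNA was sequenced from Jurkat cells, an established human T-lymphocyte leukaemia line grown in serum-containing RPMI medium, in 3 groups of 3 biological replicates. WT is the line with unedited EZH2, the histone methyltransferase of Polycomb repressive complex 2, while KO1 and KO2 are lines edited with CRISPR/Cas9 at EZH2 and labelled knockout. Each edited group is a single line, so a p-value measures the spread between cultures of that line and not between independent edits, and how the lines were isolated is not given in the sources used here.

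MAGE proteins share the MAGE homology domain, and several bind RING-type E3 ubiquitin ligases and change which proteins these ligases mark. The type I genes (MAGEA, MAGEB and MAGEC) lie on the X chromosome, are active mainly in male germ cells and placenta, and are known as cancer-testis antigens because many tumours turn them on, often together with loss of promoter DNA methylation. The type II genes (MAGED, MAGEE, MAGEF, MAGEH and MAGEL) are expressed in many adult tissues and are not counted among the cancer-testis antigens. In blood cancers the type I proteins are of interest because peptides from them are displayed to T cells.

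Type I genes moved in different directions in the edited lines, while 4 of the 5 tested type II genes fell in both. Over all tested genes, 31.9% were called lower in KO1 and 26.6% in KO2 by the test given below. The share lower in both lines was not counted, and both comparisons use the same WT libraries. The summed level of the 26 type I genes was 11.6 to 12.3 FPKM (fragments scaled to the length of the transcript and the size of the library) in the WT libraries, 36.7 to 40.9 in the KO1 libraries and 0.0681 to 0.238 in the KO2 libraries. The 3 groups of libraries did not overlap in this sum. MAGEA4 and MAGEA1 rose in KO1 and fell to at most 0.0544 FPKM in KO2, and MAGEA3 and MAGEA12 were at most 0.194 FPKM in both lines, against at least 1.20 in WT. The 9 type II genes together came to 161 to 166 FPKM in the WT libraries, 103 to 108 in those of KO1 and 116 to 123 in those of KO2, again without overlap. In such bulk samples, fewer cells with a transcript and less of it per cell cannot be told apart.

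The sequences before the start sites show what the MAGEA genes share apart from their name. RefSeq windows (build GRCh38.p14) were matched by symbol to 30 of the 35 genes, 41 windows in all, and the 250 bases before each start were searched. MAGEA1, MAGEA5, MAGEA10, MAGEB17 and MAGEH1 had no entry. The stretches below are the 130 bases before the most upstream listed start of the 3 tested MAGEA genes with a window, and of MAGEF1, the only tested type II gene that did not fall. Each is written from 5′ to 3′ on the gene's own strand. Capitals mark GGATGTGA, an 8-base run chosen after these windows had been seen, and CCGGAA, the core letters of ETS-factor sites.
MAGEA4, chrX:151912344-151912473, plus strand: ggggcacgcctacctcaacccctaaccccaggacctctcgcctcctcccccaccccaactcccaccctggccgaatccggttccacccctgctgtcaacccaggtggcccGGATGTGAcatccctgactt
MAGEA3, chrX:152698664-152698793, plus strand: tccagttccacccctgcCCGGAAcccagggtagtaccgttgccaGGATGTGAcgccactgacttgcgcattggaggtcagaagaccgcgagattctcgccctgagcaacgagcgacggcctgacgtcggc
MAGEA12, chrX:152733627-152733756, plus strand: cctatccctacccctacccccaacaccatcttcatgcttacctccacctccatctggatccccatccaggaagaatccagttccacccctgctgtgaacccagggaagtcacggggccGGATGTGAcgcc
MAGEF1, chr3:184712065-184712194, minus strand: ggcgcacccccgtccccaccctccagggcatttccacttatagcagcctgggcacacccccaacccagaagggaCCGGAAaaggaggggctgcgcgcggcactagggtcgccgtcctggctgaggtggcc
The run GGATGTGA, searched on both strands, was in 16 of 16 MAGEA windows (10 of 10 genes), in 2 of 14 MAGEB and MAGEC windows and in 0 of 11 type II windows, against 0.965% of all 35116 RefSeq windows. Because the run was chosen from these windows, its presence in MAGEA was fixed in advance, and the shares are a description only. The windows of MAGEA12 overlap and hold the same copy of the run, as do those of MAGEA2. Counting back from the start, with the base just before it at -1, the run began at -20 in MAGEA4, at -86 in MAGEA3 and at -12 in MAGEA12. CCGGAA was in 2 of 16 MAGEA windows (MAGEA3 and MAGEA6), 2 of 14 MAGEB and MAGEC windows and 1 of 11 type II windows (MAGEF1), against 14.5% of all windows. The E-box letters CACGTG were in 0 of the 41 MAGE windows and in 6.34% of all windows. Genes with the run did not share a direction: MAGEA4, which rose in KO1, and MAGEA12, which was lower there, both carry it, as do MAGEA8, MAGEA9 and MAGEA11, which were listed at 0 in all 9 libraries. The median number of CG dinucleotides per 250 bases was 11 for MAGEA, 6 for MAGEB and MAGEC and 12 for type II windows, beside 11 for all windows (quartiles 3 and 23). The windows of MAGEA3 and MAGEA6 were identical, as were those of MAGEA2 and MAGEA2B and of MAGEA9 and MAGEA9B.

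Near-identical copies bear on what a MAGEA value means. Of the 50-base pieces of the MAGEA3 transcripts in the GENCODE release 29 annotation, 56.5% also occur in another gene, nearly all of them in MAGEA6, and for MAGEA12 the share was 13.8%, mostly with MAGEA2. The MAGEA3 value may therefore include or lack reads of MAGEA6, and the MAGEA12 value those of MAGEA2, depending on how the authors' counting split them. MAGEA4 and MAGEA1 are separable, with 2.69% and 0.662% of pieces shared at 50 bases and 0 at 100 bases. Among the type II genes MAGEE1, MAGEF1 and MAGEH1 shared 0 pieces, MAGED1 0.540% and MAGED2 1.62%, whereas 99.0% of the pieces of MAGED4 also occur in MAGED4B.

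The labels and libraries were checked against known genes. The sums of FPKM were 417737 to 439704 per library, and 11028 to 11415 genes reached 1 FPKM. EZH2 transcript had FPKM values of 74.4, 77.6 and 79.5 in the WT libraries, 107.6, 106.9 and 103.0 in the KO1 libraries and 87.9, 89.9 and 90.7 in the KO2 libraries, so transcript level does not check the knockout labels. Of 20 markers of T-lineage leukaemia, 17 in WT, 18 in KO1 and 17 in KO2 had a mean of at least 1 FPKM. Of 11 germ cell markers, 0 reached 1 FPKM in any group and DAZL, SYCP1 and PRM1 were listed at 0 in every library. Summed, they came to 0.189 to 0.361 FPKM in the WT libraries, 0 to 0.475 in the KO1 libraries and 0.0882 to 0.164 in the KO2 libraries. Of 8 B-lineage markers, 1 in WT, 2 in KO1 and 1 in KO2 had a mean of at least 1 FPKM, and the list summed to 26.8 to 30.6, 50.7 to 60.3 and 20.03 to 23.3 FPKM in the libraries of the respective groups. Of its defining markers, PAX5 was listed at 0 in every group and MS4A1 had group means of at most 0.0533 FPKM. CD79A had mean levels of 27.5 FPKM over the WT libraries, 54.9 over KO1 and 21.0 over KO2. Both CD79A and EBF1 were highest in the line where MAGEA4 and MAGEA1 were highest, and their part in those results was not tested. The 10 myeloid markers summed to 0.0357 to 0.129 FPKM in the WT libraries, 1.04 to 1.74 in the KO1 libraries and 2.43 to 3.90 in the KO2 libraries, and the 10 stromal and epithelial markers to 0.462 to 0.654, 1.54 to 2.29 and 1.37 to 1.65 FPKM. In each of these lists 1 gene was tested and was called higher in both edited lines. Since each list summed to under 1 FPKM in every WT library, that gene entered the fit through edited libraries alone, and its calls carry that limit. What part these lists have in the MAGE values was not tested.

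For the comparisons, log2(FPKM + 1) of the 11737 genes with at least 1 FPKM in 3 or more of the 9 libraries was fitted with limma, and a gene was called at a Benjamini-Hochberg adjusted p under 0.05. Of the 35 MAGE genes, 9 entered: MAGEA1, MAGEA3, MAGEA4, MAGEA12, MAGED1, MAGED2, MAGEE1, MAGEF1 and MAGEH1. In KO1 against WT, 3 of the 9 were higher, where 35.6% of all tested genes were called higher, and 6 were lower, where 31.9% were. In KO2 against WT, 1 was higher (38.1% of all tested genes) and 8 were lower (26.6%). In KO2 against KO1, 3 were higher (18.3%) and 2 were lower (12.4%). MAGEA3 and MAGEA12 reached 1 FPKM only in WT, and MAGEA1 and MAGEA4 only in WT and KO1. These 4 thus entered through the groups where they are high. The counts therefore say nothing about the family as a whole, no p is given for MAGEA3 and MAGEA12, and the adjusted p-values of MAGEA4 and MAGEA1 in KO2 carry that limit. The 2 comparisons with WT share its libraries, and each fold change below is a difference in log2(FPKM + 1), which understates the change of low genes.

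MAGEA4, a target of engineered T-cell receptor therapies, was the most abundant type I gene in WT and KO1. Its level was 6.92, 6.75 and 6.91 FPKM in the WT libraries, 20.4, 23.4 and 21.8 in KO1, and 0, 0.0502 and 0.0542 in KO2. The 3 groups did not overlap: each KO1 library was above each WT library, and the KO2 libraries were at or near 0. The KO1 mean was 3.19 times the WT mean, a log2 difference of 1.54 ± 0.07 (SE; limma adjusted p = 1.43e-08). In KO2 the level fell by 2.93 ± 0.07 against WT (limma adjusted p = 3.49e-10) and fell by 4.46 ± 0.07 against KO1 (limma adjusted p = 6.11e-11). A listed 0 may be an estimate that failed: MAGEA4 is 1 of 60 rows that read 0 in some library yet 20 FPKM or more in a different library. Of these rows, only MAGEA4 and ROBO1 are not small RNAs by name. The other 2 KO2 libraries gave MAGEA4 values just above 0, with each KO2 library below each WT library.

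MAGEA1, the founding member of the family, was near the detection filter in WT and was the tested MAGE gene with the largest rise in KO1. Its level was 1.01, 1.06 and 1.37 FPKM in WT, 15.6, 16.9 and 15.1 in KO1, and 0, 0 and 0.0544 in KO2. The groups did not overlap, in the same order as for MAGEA4. The KO1 mean was 13.9 times the WT mean, with a log2 difference of 2.98 ± 0.09 (SE; limma adjusted p = 8.08e-10). The level fell by 1.07 ± 0.09 in KO2 against WT (limma adjusted p = 1.70e-06) and fell by 4.05 ± 0.09 against KO1 (limma adjusted p = 8.77e-10).

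MAGEA12 and MAGEA3 did not rise in KO1. MAGEA12, from which tumour peptides recognised by T cells are known, was at 2.37, 2.02 and 2.14 FPKM in WT, 0.0505, 0.0535 and 0 in KO1, and 0 in each of the 3 KO2 libraries. MAGEA3, which with MAGEA6 binds the ligase TRIM28 and directs it to the energy sensor AMPK, was at 1.73, 1.62 and 1.20 FPKM in WT, 0.194, 0.0515 and 0 in KO1, and likewise 0 in each KO2 library. For both genes each WT library was above each edited library. As a description only, since both genes entered the fit through WT alone, the fitted difference of KO1 from WT was -1.62 ± 0.09 (SE) for MAGEA12 and -1.22 ± 0.11 for MAGEA3. No fold is given for KO2, where both genes are listed at 0.

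**Figure D1:**
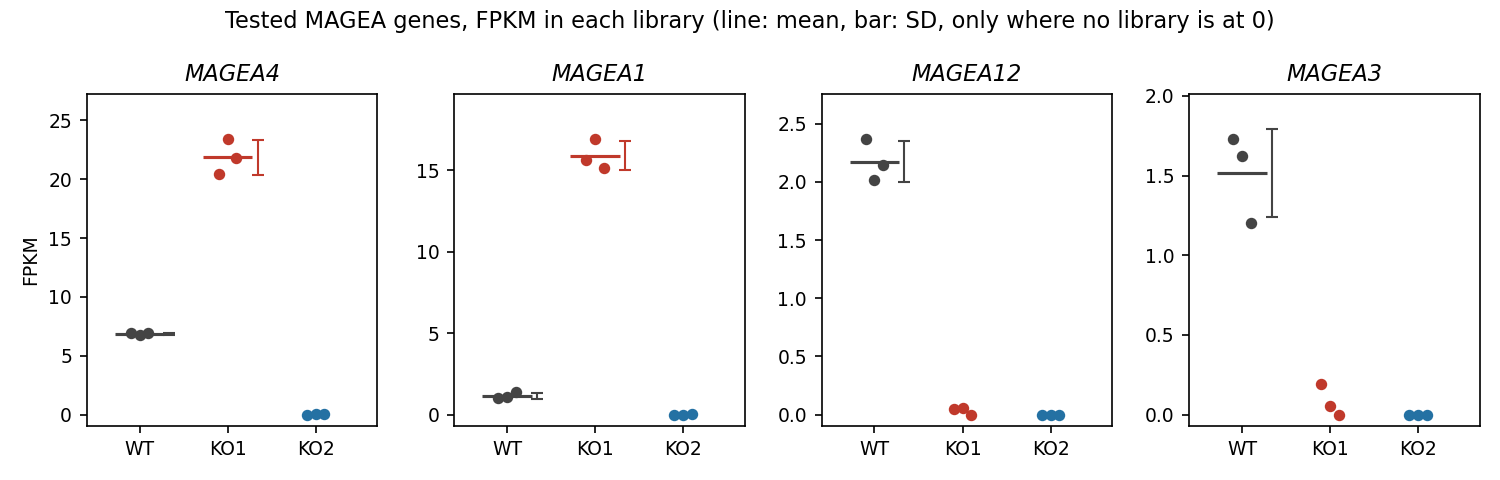
FPKM (linear vertical axis, its own scale in each panel) of the 4 tested MAGEA genes in each library of WT, KO1 and KO2, with the mean as a line and the SD as a bar for groups with no library at 0. MAGEA4 and MAGEA1 are highest in KO1, at 20.4 to 23.4 and 15.1 to 16.9 FPKM, MAGEA12 and MAGEA3 are highest in WT, and the KO2 points of all 4 genes lie at or near 0.

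The other type I genes were low or absent. MAGEA10, which has been linked to the ligase RNF166, was at 0.0565, 0.0328 and 0.0328 FPKM in WT, 0.214, 0.190 and 0.127 in KO1, and 0.0681, 0.188 and 0.0674 in KO2. Each edited library was above each WT library, and the edited lines overlapped. MAGEA5 was at 0.0473, 0.0544 and 0 FPKM in WT, 0.101, 0.161 and 0 in KO1 and 0 in each KO2 library, and the WT and KO1 libraries overlapped. MAGEB18, a partner of the ligase LNX1, was at 0.129, 0 and 0.0496 FPKM in WT, 0.0460, 0.146 and 0.144 in KO1 and 0 in each KO2 library, with WT and KO1 again overlapping. MAGEA2, MAGEA6 and MAGEC1 stayed under 0.1 FPKM. The remaining 16 type I genes, MAGEA2B, MAGEA8, MAGEA9, MAGEA9B, MAGEA11, MAGEB1, MAGEB2, MAGEB3, MAGEB4, MAGEB5, MAGEB6, MAGEB10, MAGEB16, MAGEB17, MAGEC2 and MAGEC3, were listed at 0 in all 9 libraries. These genes were not tested, and with 3 libraries a group an exact permutation test cannot go below a p of 0.1.

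Among the type II genes, MAGED1 was by far the most abundant member of the family. MAGED1, an adaptor of the neurotrophin receptor p75 that also binds the ligase PJA1, was at 110.3, 108.9 and 108.4 FPKM in WT, 67.1, 61.9 and 64.0 in KO1, and 76.7, 74.4 and 69.9 in KO2. The 3 groups did not overlap, with KO1 lowest. The KO1 mean was 0.589 times and the KO2 mean 0.675 times the WT mean, and MAGED1 fell by 0.75 ± 0.04 in KO1 (SE; limma adjusted p = 1.19e-07) and fell by 0.56 ± 0.04 in KO2 (limma adjusted p = 1.47e-06). KO2 was above KO1 by 0.19 ± 0.04 (limma adjusted p = 0.00785).

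MAGED2, in which mutations cause a transient antenatal form of Bartter syndrome, followed the same order. Its level was 28.4, 29.4 and 28.7 FPKM in WT, 16.7, 17.1 and 15.9 in KO1, and 20.8, 20.2 and 22.0 in KO2, without overlap between groups. The KO1 mean was 0.574 times and the KO2 mean 0.728 times the WT mean. MAGED2 fell by 0.77 ± 0.05 in KO1 (SE; limma adjusted p = 2.06e-07) and fell by 0.44 ± 0.05 in KO2 (limma adjusted p = 1.71e-05), and KO2 was above KO1 by 0.32 ± 0.05 (limma adjusted p = 0.000621).

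MAGEE1, which binds the dystrobrevins, had the lowest KO1-to-WT ratio of the type II genes. Its level was 4.18, 3.41 and 3.40 FPKM in WT, 1.25, 1.20 and 1.04 in KO1, and 2.40, 2.27 and 1.80 in KO2. The groups did not overlap, and KO2 lay between the others. The KO1 mean was 0.318 times and the KO2 mean 0.588 times the WT mean. MAGEE1 fell by 1.10 ± 0.10 in KO1 (SE; limma adjusted p = 3.51e-06) and fell by 0.56 ± 0.10 in KO2 (limma adjusted p = 0.000586), and KO2 was above KO1 by 0.54 ± 0.10 (limma adjusted p = 0.00253).

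MAGEH1, another protein that binds the p75 receptor, also fell in both lines. Its level was 4.16, 4.10 and 4.90 FPKM in WT, 1.90, 2.26 and 1.94 in KO1, and 2.52, 2.25 and 2.69 in KO2. Each WT library was above each edited library, while the edited lines overlapped. The KO1 mean was 0.463 times and the KO2 mean 0.566 times the WT mean. MAGEH1 fell by 0.83 ± 0.09 in KO1 (SE; limma adjusted p = 1.20e-05) and fell by 0.63 ± 0.09 in KO2 (limma adjusted p = 0.000112), and the difference between the lines was 0.20 ± 0.09 (limma adjusted p = 0.110).

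MAGEF1, which pairs with the ligase subunit NSMCE1 and acts on the iron-sulphur assembly factor MMS19, was the only one of the 5 tested type II genes called higher, by a small amount. Its level was 16.8, 19.7 and 15.6 FPKM in WT, 20.6, 20.4 and 20.7 in KO1, and 20.8, 22.9 and 19.7 in KO2. The KO1 libraries were above all WT libraries, and the lowest KO2 library overlapped the highest WT library. The means were 1.19 times WT in KO1 and 1.22 times WT in KO2, with log2 differences of 0.24 ± 0.08 (SE; limma adjusted p = 0.0219) and 0.27 ± 0.08 (limma adjusted p = 0.0122). The MAGEF1 call in KO1 was lost without WT replicate 1, WT replicate 3 or KO1 replicate 1 (limma adjusted p = 0.0548, 0.0892 and 0.0501), and the call in KO2 was lost without KO2 replicate 2 (limma adjusted p = 0.0537).

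MAGEL2, an imprinted gene of the Prader-Willi region whose protein works with TRIM27 and USP7, did not reach the filter. It was at 0.0847, 0.0592 and 0 FPKM in WT, 0.828, 0.506 and 0.569 in KO1, and 0.0615, 0 and 0.101 in KO2. Each KO1 library was above each WT and KO2 library, which overlapped. With no filter on low values, MAGEL2 was called higher in KO1 than in WT by 0.64 (limma adjusted p = 0.000147) and MAGEA10 by 0.18 (limma adjusted p = 0.0128). This brought the number of MAGE genes called higher to 5 of 18 tested, beside 4863 of all 18182 genes tested. MAGED4 and MAGED4B stayed under 0.1 FPKM, and MAGEE2 was listed at 0 in all 9 libraries.

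The median difference of the 5 tested type II genes was -0.77 in KO1 and -0.56 in KO2, beside 0.02 and 0.06 over all tested genes. All 5 reached 1 FPKM in every library, so their entry did not depend on a difference. Of 18 tested T-lineage markers, 13 were lower and 4 higher in KO1, where 31.9% of all tested genes were lower and 35.6% higher. In KO2, 11 were lower and 4 higher, where 26.6% of all tested genes were lower and 38.1% higher. The medians of these markers were -0.39 in KO1 and -0.33 in KO2. Their summed level was 1677 to 1788 FPKM in the WT libraries, 1386 to 1527 in the KO1 libraries and 1604 to 1642 in the KO2 libraries. What part this has in the type II values was not tested. Per kilobase, the order in WT was MAGED1, MAGED2, MAGEF1, then MAGEH1 and MAGEE1, whose WT libraries overlapped. In KO1 the order was MAGED1, MAGEF1, MAGED2, MAGEH1 and MAGEE1, with MAGEF1 above MAGED2 in all 3 libraries. Of the calls over all tested genes in KO2 against KO1, 59.7% were higher, and this share was 49.0% after quantile normalization and 47.9% after median centring. MAGED1, MAGED2 and MAGEE1 passed the test as higher in KO2 than in KO1 under both.

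**Figure D2:**
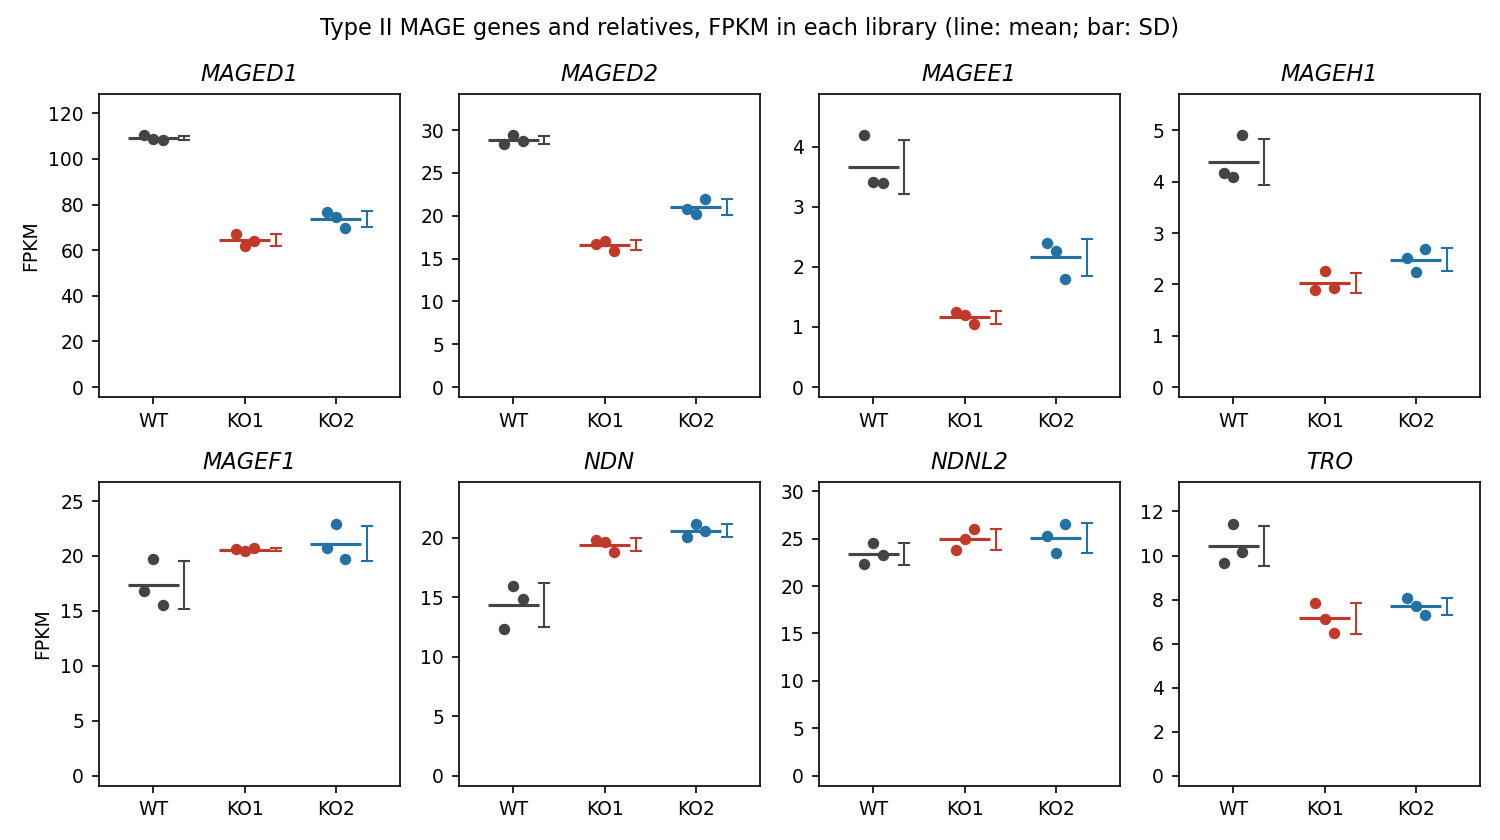
FPKM (linear vertical axis, its own scale in each panel) of the 5 tested type II genes and of the relatives NDN, NDNL2 and TRO in each library, with the mean as a line and the SD as a bar. MAGED1, MAGED2, MAGEE1 and MAGEH1 are lower in every KO1 and KO2 library than in every WT library, and MAGEF1 lies between 15.6 and 22.9 FPKM throughout.

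**Figure D3:**
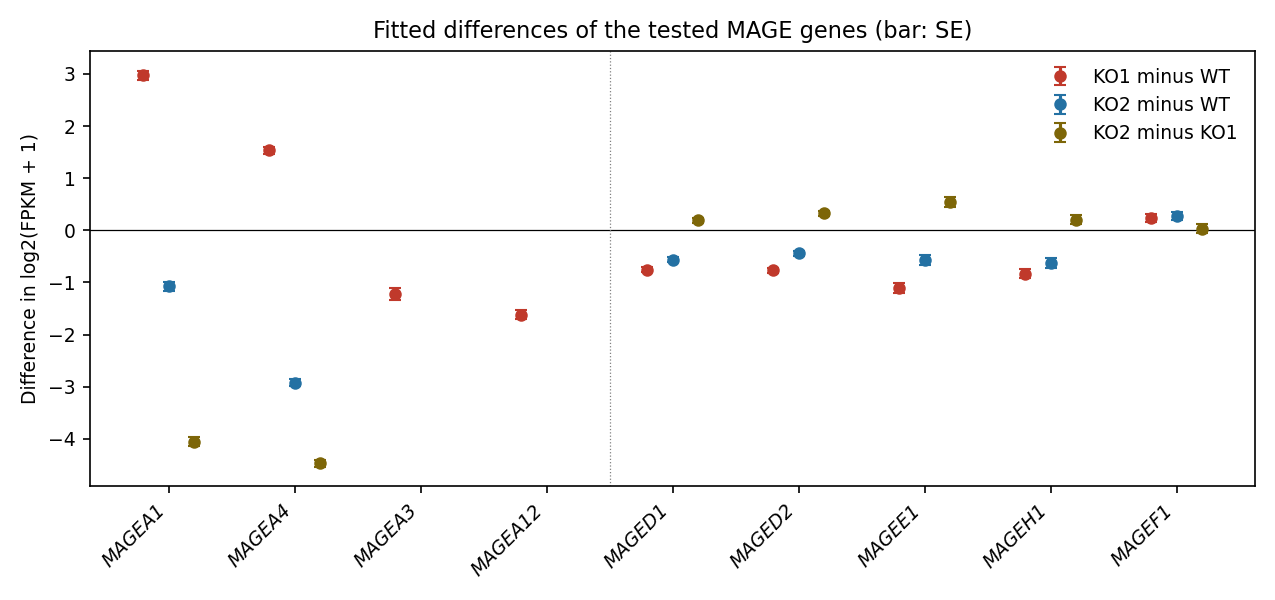
Fitted differences in log2(FPKM + 1) (vertical axis, bars are SE) of the 9 tested MAGE genes for KO1 minus WT, KO2 minus WT and KO2 minus KO1; the KO2 differences of MAGEA3 and MAGEA12 are left out because all KO2 libraries are listed at 0. MAGEA1 (2.98) and MAGEA4 (1.54) lie above 0 in KO1 and below 0 in KO2, whereas MAGED1, MAGED2, MAGEE1 and MAGEH1 lie below 0 in both.

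The MAGE relatives whose symbols fall outside the rule did not move together. Necdin (NDN), an imprinted growth suppressor with a MAGE homology domain, rose by 0.42 ± 0.08 in KO1 (SE; limma adjusted p = 0.000741) and by 0.50 ± 0.08 in KO2 (limma adjusted p = 0.000233). Trophinin (TRO), a cell adhesion protein encoded next to MAGED2, fell by 0.49 ± 0.08 in KO1 (limma adjusted p = 0.000297) and fell by 0.39 ± 0.08 in KO2 (limma adjusted p = 0.00148). NDNL2, the SMC5/6 complex subunit also called NSMCE3, had WT libraries at 23.4 ± 1.15 FPKM, KO1 libraries at 24.9 ± 1.12 and KO2 libraries at 25.1 ± 1.57 (mean ± SD, n = 3 each) and passed in neither line (limma adjusted p = 0.200 and 0.169).

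Of 13 tested genes for ubiquitin ligases and partners of MAGE proteins, 4 were higher, 3 lower and 6 not called in KO1, where 35.6% of all tested genes were higher and 31.9% lower. In KO2, 4 were higher, 4 lower and 5 not called, where 38.1% of all tested genes were higher and 26.6% lower. PJA1, the ligase bound by MAGED1, rose by 0.75 ± 0.12 in KO1 (SE; limma adjusted p = 0.000214) and by 0.73 ± 0.12 in KO2 (limma adjusted p = 0.000287), the direction opposite to MAGED1 itself. The deubiquitinase USP7 fell by 0.45 ± 0.03 in KO1 (limma adjusted p = 5.76e-07) and fell by 0.33 ± 0.03 in KO2 (limma adjusted p = 7.38e-06). The related enzyme USP11 fell by 1.00 ± 0.08 in KO1 (limma adjusted p = 7.97e-07) and fell by 0.71 ± 0.08 in KO2 (limma adjusted p = 1.30e-05). RNF166 rose in KO2 by 0.46 ± 0.07 (limma adjusted p = 0.000144), while its KO1 value was -0.08 ± 0.07 (limma adjusted p = 0.305). Of 6 tested genes of the SMC5/6 complex, 1 was higher, 1 lower and 4 not called in each line, beside the same shares of all tested genes. The SUMO ligase NSMCE2 fell by 0.47 ± 0.07 in KO1 (limma adjusted p = 0.000127) and fell by 0.45 ± 0.07 in KO2 (limma adjusted p = 0.000181), and SMC5 rose by 0.41 ± 0.06 in KO1 (limma adjusted p = 0.000130). The SMC5 call in KO2, 0.19 ± 0.06 (limma adjusted p = 0.0188), was lost without WT replicate 2, WT replicate 3, KO2 replicate 1 or KO2 replicate 3 (limma adjusted p = 0.0579 to 0.0728) and after median centring (limma adjusted p = 0.0583). SMC6 (0.18 ± 0.08 in KO1, limma adjusted p = 0.0592) and NSMCE1 (0.10 ± 0.06, limma adjusted p = 0.121) did not pass there, but SMC6 was called higher without WT replicate 1 (limma adjusted p = 0.0145), without KO1 replicate 2 (limma adjusted p = 0.0355) and after quantile normalization (limma adjusted p = 0.0453).

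Outside the MAGE family, X-linked cancer-testis antigens were mostly listed at 0 in all groups. Of 90 such genes in the table, 76 were listed at 0 in all 9 libraries, 9 reached 0.1 FPKM in a library and 3 were tested, of which 0 were higher and 2 lower in each edited line, where 31.9% (KO1) and 26.6% (KO2) of all tested genes were lower. CSAG1, which lies among the MAGEA genes, was at 3.28, 4.16 and 2.13 FPKM in WT, 0.151, 0.161 and 0 in KO1, and 0 in each KO2 library, the pattern of MAGEA12 and MAGEA3. CSAG1 also entered the fit through WT alone, so its fitted difference of -1.90 ± 0.16 (SE) in KO1 is a description, and no p is given. PASD1, named after its values were seen and not tested, was at 1.14, 0.899 and 1.01 FPKM in WT, 0.0985, 0.0781 and 0.0764 in KO1, and 0.0275, 0 and 0 in KO2. PAGE5 was at 1.55, 0.423 and 0.835 FPKM in WT, 1.34, 1.44 and 1.30 in KO1, and 0.442, 0 and 0.220 in KO2. PAGE5 reached 1 FPKM in all KO1 libraries, in WT replicate 1 and in no KO2 library, so its entry into the fit depended on KO1. With that limit, it fell in KO2 by 0.64 ± 0.20 (limma adjusted p = 0.0143), a call that was lost without KO2 replicate 2 (limma adjusted p = 0.0595). Without WT replicate 1 it was called higher in KO1, the line through which it entered, so no p is given. ARMCX6 fell in KO1 by 0.38 ± 0.12 (limma adjusted p = 0.0139), which was lost without WT replicate 2 (limma adjusted p = 0.0595) or KO1 replicate 2 (limma adjusted p = 0.0563), and its KO2 value was 0.07 ± 0.12 (limma adjusted p = 0.604).

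Of 21 tested autosomal cancer-testis and germline genes, 5 were higher and 8 lower in KO1, where 35.6% and 31.9% of all tested genes were higher and lower. In KO2, 5 were higher and 11 lower, where the shares of all tested genes were 38.1% and 26.6%. The transmembrane protein gene TMEFF1 rose by 2.04 ± 0.25 in KO1 (SE; limma adjusted p = 2.93e-05) and by 1.34 ± 0.25 in KO2 (limma adjusted p = 0.000710). Of the piRNA pathway genes, the helicase TDRD9 fell by 1.44 ± 0.09 in KO1 (limma adjusted p = 2.34e-07) and fell by 0.63 ± 0.09 in KO2 (limma adjusted p = 0.000140). PIWIL4, among the genes counted as higher, reached 1 FPKM only in edited libraries and so entered the fit through them alone. As a description, its difference from WT was 0.86 ± 0.12 in KO1 and 0.75 ± 0.12 in KO2, and no p is given. After quantile normalization the PIWIL4 difference in KO2 was 0.27 and was not called. The meiotic recombinase DMC1 fell by 0.59 ± 0.12 in KO1 (limma adjusted p = 0.00103) and fell by 0.85 ± 0.12 in KO2 (limma adjusted p = 9.15e-05).

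The 4 tested MAGEA genes lie on the same part of the X chromosome, in RefSeq gene order (assembly GRCh38.p14) MAGEA4, MAGEA3, MAGEA12 and MAGEA1, with 27 genes of the table from the first to the last. This stretch was laid out after the values had been seen. Of the 27, 9 are MAGE genes, 9 were listed at 0 in all 9 libraries, 13 were under 0.1 FPKM in every library and 7 were tested. MAGEA4 and MAGEA1, at the ends, were high in KO1, whereas MAGEA3, CSAG1 and MAGEA12, next to each other apart from MAGEA2B, which was listed at 0, were present in WT and at or near 0 in both edited lines. GABRA3, a GABA receptor subunit gene between MAGEA10 and MAGEA3, was named after its values were seen and not tested. It was at 0.0268, 0.0623 and 0 FPKM in WT, 0.435, 0.583 and 0.390 in KO1, and 0, 0 and 0.0320 in KO2, so that each KO1 library was above each WT and KO2 library. Of the genes between MAGEA6 and MAGEA1, PNMA3, also named after its values were seen and not tested, was at 0.548, 0.728 and 0.821 FPKM in WT, 0.466, 0.314 and 0.0680 in KO1, and 0.520, 0.413 and 0.585 in KO2. Each KO1 library was below each WT library, and KO2 overlapped WT. CETN2, a centrin, had WT libraries at 38.3 ± 4.12 FPKM, KO1 libraries at 30.6 ± 1.45 and KO2 libraries at 38.8 ± 1.40 (mean ± SD, n = 3 each); it fell by 0.31 ± 0.07 in KO1 (SE; limma adjusted p = 0.00231) and its KO2 value was 0.02 ± 0.07 (limma adjusted p = 0.812). NSDHL, a cholesterol synthesis enzyme, fell by 0.56 ± 0.07 in KO1 (limma adjusted p = 4.64e-05). In KO2 NSDHL fell by 0.22 ± 0.07 (limma adjusted p = 0.0189), a call lost without WT replicate 2 (limma adjusted p = 0.0782) or KO2 replicate 1 (limma adjusted p = 0.0662).

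**Figure D4:**
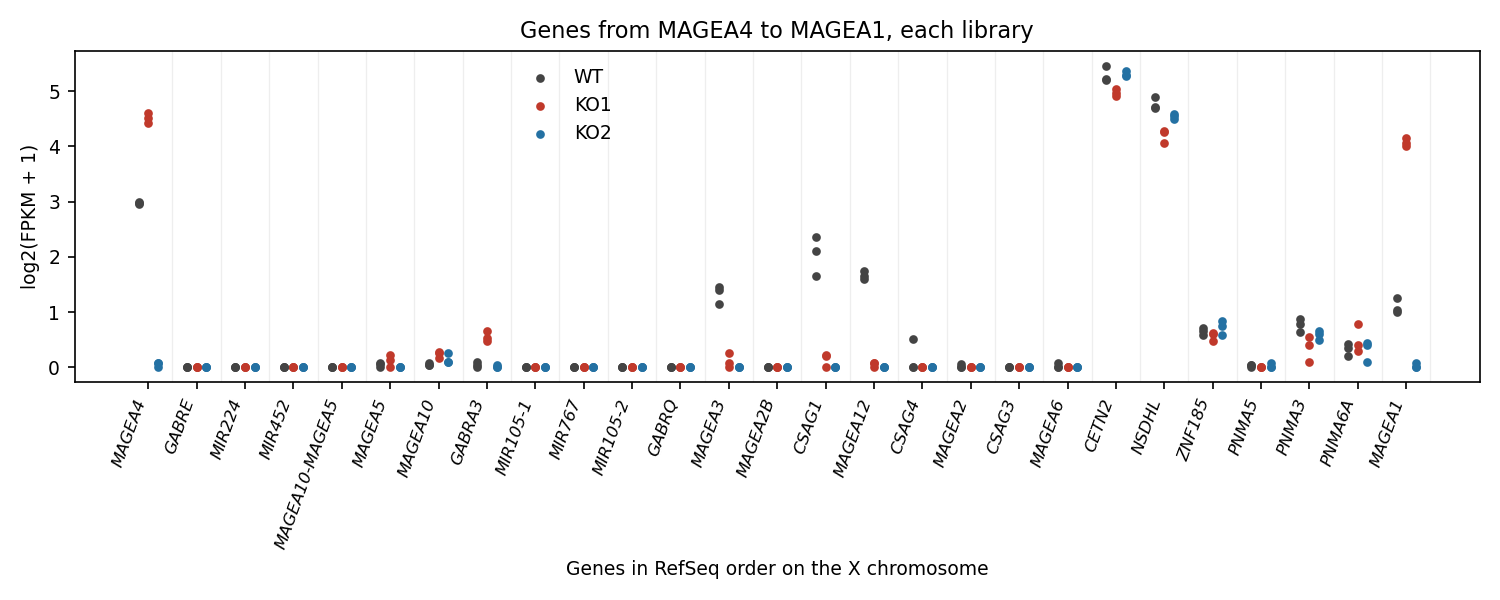
log2(FPKM + 1) (vertical axis) of the 27 table genes from MAGEA4 to MAGEA1 in RefSeq gene order (horizontal axis, evenly spaced and not to scale), with a point for each library of WT, KO1 and KO2. The KO1 points stand highest at MAGEA4 and MAGEA1, the WT points at MAGEA3, CSAG1 and MAGEA12, and CETN2 and NSDHL are expressed in all 9 libraries.

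The nearest tested genes outside this stretch did not repeat the MAGEA pattern. Before MAGEA4, VMA21 fell by 0.17 ± 0.07 in KO1 (SE; limma adjusted p = 0.0454), a call lost when any of the WT libraries, KO1 replicate 1 or KO2 replicate 3 was left out (limma adjusted p = 0.0592 to 0.177) and after quantile normalization (limma adjusted p = 0.0789), and its KO2 value was -0.07 ± 0.07 (limma adjusted p = 0.397). After MAGEA1, ZNF275 had a KO1 value of -0.16 ± 0.07 (limma adjusted p = 0.0604) and fell by 0.17 ± 0.07 in KO2 (limma adjusted p = 0.0492), a call lost when any of the WT libraries, KO1 replicate 2, KO2 replicate 1 or KO2 replicate 3 was left out (limma adjusted p = 0.0580 to 0.179). ZNF275 was called lower in KO1 without KO1 replicate 3 (limma adjusted p = 0.0372), after quantile normalization (limma adjusted p = 0.0368) and after median centring (limma adjusted p = 0.0480).

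For the type II genes, a neighbour sometimes moved with the MAGE gene. UPRT, on the side before MAGEE1, was at 13.1, 13.2 and 12.0 FPKM in WT, 4.35, 5.13 and 4.85 in KO1, and 9.44, 6.93 and 7.49 in KO2, the order of MAGEE1 itself and likewise without overlap. UPRT fell by 1.25 ± 0.10 in KO1 (SE; limma adjusted p = 1.15e-06) and fell by 0.63 ± 0.10 in KO2 (limma adjusted p = 0.000244). ATRX, on the other side of MAGEE1, fell by 0.36 ± 0.05 in KO1 (limma adjusted p = 9.55e-05) and had a KO2 value of -0.10 ± 0.05 (limma adjusted p = 0.118), which was called lower after quantile normalization (limma adjusted p = 0.0367) and median centring (limma adjusted p = 0.0307). RRAGB, after MAGEH1, fell by 0.64 ± 0.11 in KO1 (limma adjusted p = 0.000577), with -0.18 ± 0.11 in KO2 (limma adjusted p = 0.192). PAGE5, before MAGEH1, had a KO1 value of 0.33 ± 0.20 (limma adjusted p = 0.162), opposite in sign to MAGEH1. The KO2 value of PAGE5 and the limit on its entry are given above.

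Next to MAGED1 and MAGED2 the neighbours were mixed. TSPYL2, after MAGED1, fell by 0.65 ± 0.07 in KO1 (SE; limma adjusted p = 1.34e-05) and fell by 0.85 ± 0.07 in KO2 (limma adjusted p = 2.17e-06). GSPT2, before MAGED1, had values of -0.03 ± 0.07 in KO1 (limma adjusted p = 0.682) and 0.14 ± 0.07 in KO2 (limma adjusted p = 0.0878), and without WT replicate 1 it was called higher in KO2 (limma adjusted p = 0.0166). GNL3L, before MAGED2, rose by 0.23 ± 0.04 in KO1 (limma adjusted p = 0.000581) and by 0.42 ± 0.04 in KO2 (limma adjusted p = 8.07e-06). Beside MAGEF1, which lies on chromosome 3, POLR2H fell by 0.35 ± 0.04 in KO1 (limma adjusted p = 4.48e-05) and fell by 0.23 ± 0.04 in KO2 (limma adjusted p = 0.000977), and VPS8 rose by 0.30 ± 0.05 in KO1 (limma adjusted p = 0.000299) and by 0.39 ± 0.05 in KO2 (limma adjusted p = 5.65e-05).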

How the data were processed

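Polyadenylated RNA libraries were prepared with the KAPA mRNA HyperPrep kit, per the labels' protocols. The authors deposited FPKM values per gene symbol and library. The submitters' processing notes name STAR 2.5.0b, Cufflinks 2.2.1, bedtools 2.7.0 and build hg19 but no role or order. For the annotation, the strandedness and the handling of reads that match several genes, the method is not given in the sources used here. Read depth is unknown, so no counting interval is given. Of 26228 rows, 38 held text, not values, and were dropped.

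Groups and replicate numbers came from the sample titles. A linear model of log2(FPKM + 1) with a mean for each of the groups was fitted over all 9 libraries (limma 3.58.1, R 4.3.3), with empirical Bayes with a mean-variance trend, and with Benjamini-Hochberg adjustment over 11737 genes, and the code was tested on simulated data. The members and gene lists were chosen with earlier results of these data known. Tested members were named with every value, untested members from 0.1 FPKM, and up to 4 tested genes per list by the largest difference from WT, plus NDN, NDNL2, TRO and the nearest tested neighbours. RefSeq is on build GRCh38.p14, and genes of the table were matched to it by symbol, or by an unambiguous synonym where the symbol was missing. RefSeq start positions served only to put these genes in order.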

Additional observations from a re-analysis of the deposited data

Results flagged for a closer look

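For 5 of the 9 tested MAGE genes the edited lines differed from each other by the test of the contrast between them (limma adjusted p under 0.05, 3 libraries each). Of all tested genes, 18.3% were called higher and 12.4% lower in KO2 than in KO1. MAGEA1 and MAGEA4 were at or near 0 in KO2 and did not enter the fit through that line, which limits their calls. KO2 minus KO1 was -4.05 for MAGEA1 and -4.46 for MAGEA4 in log2(FPKM + 1), and these genes were above WT in KO1 and below it in KO2. It was 0.19 for MAGED1, 0.32 for MAGED2 and 0.54 for MAGEE1, which were below WT in both lines.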

How the results depend on the processing

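The MAGE genes called were 3 higher and 6 lower in KO1, 1 higher and 8 lower in KO2, and 3 higher and 2 lower in KO2 against KO1. With no filter, 5 were higher in KO1 (18 tested), beside 4863 of all 18182 genes tested. With a filter at 5 FPKM (5 tested), 2 were lower in KO1 and 4 in KO2, since fewer members entered. Of all 9119 genes tested at that filter, 3081 were lower in KO1 and 2602 in KO2. Requiring a 2-fold change as well left 3 lower in KO1, 4 lower and 0 higher in KO2, and 0 higher in KO2 against KO1. Of all 11737 genes, this rule left 334 lower in KO1, 253 lower and 457 higher in KO2, and 42 higher in KO2 against KO1. The 4 in KO2 were MAGEA1, MAGEA3, MAGEA4 and MAGEA12, and the 3 in KO1 were MAGEA3, MAGEA12 and MAGEE1. For the MAGEA genes among them, the limit on entry into the fit given above applies. An adjusted p under 0.01 left 0 higher in KO2, beside 3644 of all 11737 genes. Leaving out single libraries gave 0 to 1 higher in KO2, with 0 without KO2 replicate 2 (MAGEF1), where 4145 of all 11737 genes were higher. Over the 9 tested members and 3 comparisons, 561 values kept direction and call, 18 kept direction and lost the call, and 3 changed sign. These 3 were MAGEF1 in KO2 against KO1, never called: -0.0039 after quantile normalization, -0.00026 after median centring and -0.023 to 0.080 without single libraries. Uncalled values of other genes also changed sign: CETN2 in KO2 (-0.011 after quantile normalization, -0.024 after median centring, -0.027 to 0.11 without single libraries), ARMCX6 in KO2 (-0.040 to 0.17 without single libraries) and GSPT2 in KO1 (-0.075 to 0.029 likewise). Same-numbered libraries did not deviate together in all groups (r of -0.287 to 0.318 over 9 pairs, 3 above 0.1). Between WT and KO2 r was 0.318, 0.033 and 0.232, and between WT and KO1 it was -0.287, -0.077 and -0.206. The numbers thus do not pair the libraries throughout. A replicate block gave 3 higher and 6 lower in KO1, 1 higher and 8 lower in KO2, and 3 higher and 2 lower between the edited lines, and no MAGE call changed. Low FPKM limit what can be said of the 26 untested members, and no read counts give their precision.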
